A study of Mus musculus with 2 samples.

Results

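The voltage-gated calcium and sodium channel genes of the mouse retina were followed across the cell classes of 2 single-cell libraries. Members were taken by gene symbol: those starting with Cacna1, Cacna2d, Cacnb or Cacng, and those starting with Scn and a digit, without the epithelial sodium channel genes (Scnn) and without antisense genes. The rule found 40 of the 32285 genes counted. They were 10 pore-forming calcium channel alpha1 genes, 4 alpha2delta genes, 4 calcium channel beta genes, 8 gamma or TARP genes, 10 pore-forming sodium channel alpha genes and 4 sodium channel beta genes. The series title concerns whether Müller cells, which are radial glia, turn into retinal ganglion cells in vivo. Mice on the B6.Cg background (/J) carried the reporter allele tm9(CAG-tdTomato)Hze of Gt(ROSA)26Sor, which codes for a red fluorescent protein. They were 14 weeks old, and their retinas were taken 8 weeks after an injection of adeno-associated virus (AAV). Reporter-positive cells were sorted and put through 10x droplet sequencing of transcript 3′ ends. The Muller library held cells of the test virus, for which the protocol gives about 4.9% reporter-positive cells and 60000 sorted cells. The MullerControl library held cells of the control virus, with about 10% and 120000. For each library 27000 cells were loaded. The assignment of the test virus to the Muller library rests on the other library's label. The labels do not give the cargo of either virus, the promoter or recombinase that set which cells turned red, or how many mice were pooled.

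As background, voltage-gated calcium channels open on depolarization and let calcium in, and a channel is built of a pore-forming alpha1 subunit that sets its type, an intracellular beta subunit and an extracellular alpha2delta subunit that bring it to the membrane. L-type channels open for as long as the cell stays depolarized and drive the graded glutamate release of photoreceptors and bipolar cells at ribbon synapses. P/Q-, N- and R-type channels serve fast release at conventional synapses, and T-type channels open at more negative voltages. Several genes named as calcium channel gamma subunits encode TARPs, auxiliary proteins of AMPA-type glutamate receptors. Voltage-gated sodium channels carry action potentials, which ganglion cells and many amacrine cells fire. Most photoreceptors and bipolar cells signal with graded potentials, and Müller cells do not fire.

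Each group had 1 library, so no test was possible and no p-value is given. Levels are the unique molecular identifiers (UMIs, 1 per captured transcript) of a gene summed over a class within a library, as counts per 1000000 UMIs of that sum (CPM). Values in parentheses after a level are exact Poisson 95% intervals for counting error alone, without variation between mice, injections or sorts. Capture of 3′ ends gives no level per transcript length, so a gene was compared with itself across classes and not with other genes. The libraries held 12316 (Muller) and 11309 (MullerControl) barcodes and 25622379 (Muller) and 23549118 (MullerControl) UMIs. Their barcodes held 1478 (Muller) and 1552 (MullerControl) UMIs at the median. They shared 40 barcode sequences. After filters 10757 (Muller) and 9538 (MullerControl) cells were kept. Clusters were built without the 40 channel genes and named from marker genes. Rod-like cells numbered 4518 (Muller) and 6367 (MullerControl) cells, cone-like 379 (Muller) and 892 (MullerControl) cells, rod bipolar-like 713 (Muller) and 212 (MullerControl) cells, other bipolar-like 2696 (Muller) and 839 (MullerControl) cells, amacrine-like 910 (Muller) and 233 (MullerControl) cells, Müller-like 757 (Muller) and 615 (MullerControl) cells and microglia or macrophage-like 111 (Muller) and 187 (MullerControl) cells. No cluster was named for retinal ganglion cells. Cluster 10, with 485 (Muller) and 147 (MullerControl) cells, had all 12 Müller markers raised but was left unnamed, because Flt1, a gene of the endothelial list, and no Müller marker stood among its 10 leading genes. Cluster 20, with 178 (Muller) and 38 (MullerControl) cells, was left unnamed because 8 of 10 amacrine and 6 of 7 horizontal cell markers were raised there. Cluster 1 carried the rod name with 3 of 13 rod markers.

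Of the 40 members, 31 had at least 100 UMIs over the kept cells. A further 4 had between 20 and 99 UMIs, Cacng8, Scn3b and Scn4a among them. Cacng6 had 1 UMI and Scn11a 2. No UMI of Cacng1, Scn10a or Scn4b lay in a kept cell, and Cacng1 had 1 UMI among all MullerControl barcodes. Of the 31 members, 22 had their highest level in the same class or unnamed cluster in both libraries. That place was the amacrine-like class for 8 members, cluster 20 for 7, the other bipolar-like class for 3, cluster 10 for 2, the rod-like class for 1 and the rod bipolar-like class for 1. Summed over all members, the level was 2468 CPM (Muller) and 2375 CPM (MullerControl) in amacrine-like cells, 2559.7 CPM (Muller) and 2429 CPM (MullerControl) in cluster 20, 1661 CPM (Muller) and 1801 CPM (MullerControl) in rod bipolar-like cells and 1624 CPM (Muller) and 1951 CPM (MullerControl) in other bipolar-like cells. It was 586 CPM (Muller) and 486 CPM (MullerControl) in rod-like cells, 451 CPM (Muller) and 480.2 CPM (MullerControl) in cone-like cells, 510.0 CPM (Muller) and 487 CPM (MullerControl) in Müller-like cells and 358 CPM (Muller) and 214 CPM (MullerControl) in microglia or macrophage-like cells. Amacrine-like and bipolar-like cells thus had higher member sums than photoreceptor-like and glia-like cells in both libraries.

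**Figure D1:**
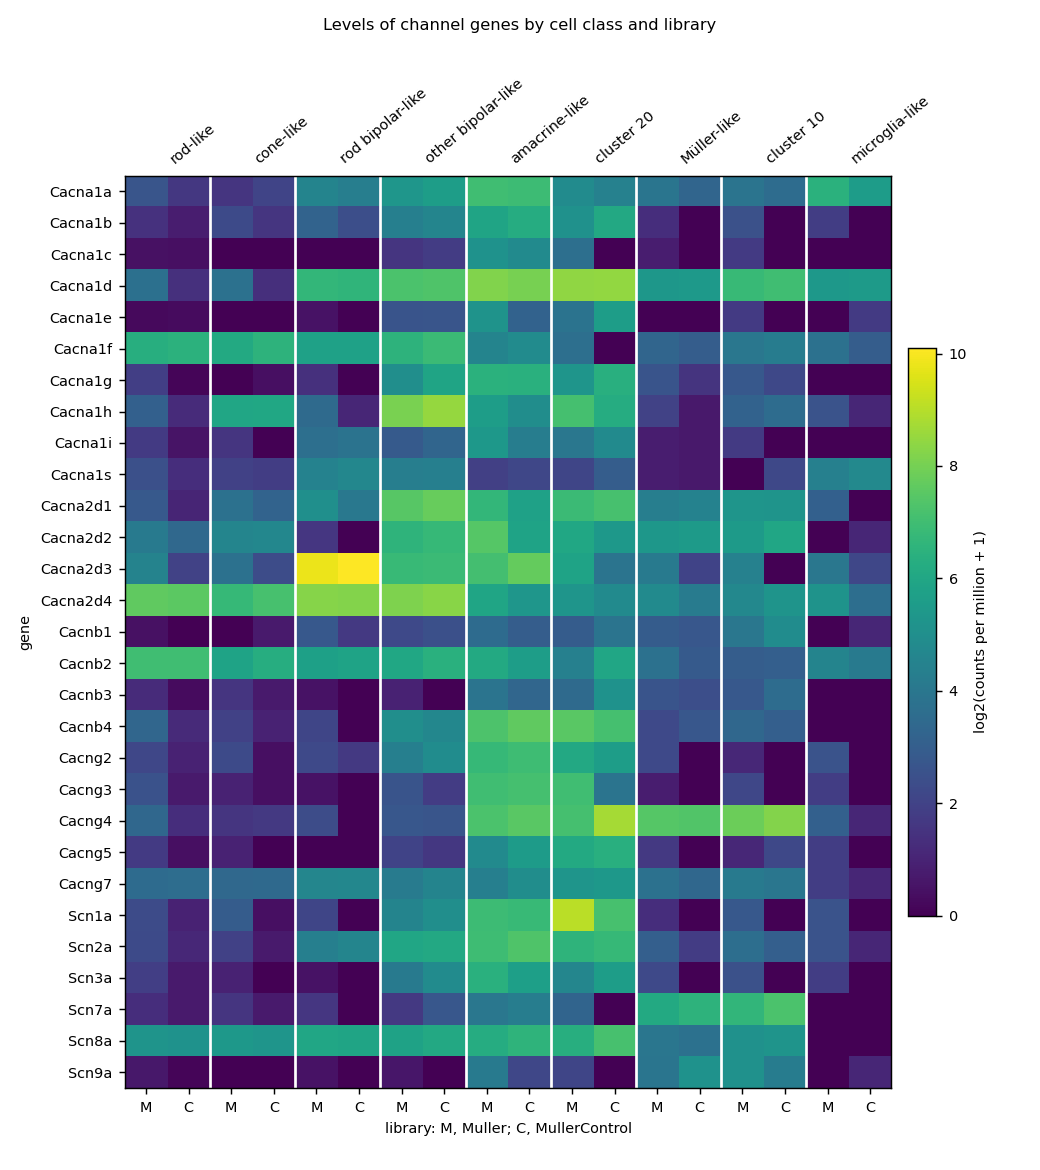
Heat map of log2(CPM + 1) for the 29 calcium channel genes and sodium channel pore genes with at least 100 UMIs, in 9 classes or unnamed clusters, with the Muller library in the left and the MullerControl library in the right column of each pair. Cacna2d3 is brightest in rod bipolar-like cells, Scn7a stands out in Müller-like cells and cluster 10, and most sodium channel genes are low in rod-like and cone-like cells.

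The 4 members whose class pattern the results turn on are shown with the 250 bases before their transcript start, from RefSeq on GRCm38.p6: Cacna1f for the photoreceptor and bipolar pattern, Cacna2d3 for the rod bipolar pattern, Scn1a for cluster 20 and Scn7a for the Müller-like pattern. Capitals mark TAATCC, the core bound by the photoreceptor and bipolar homeodomain factors Crx and Otx2, and CAGCTG, an E-box form bound by basic helix-loop-helix factors. Both strands were searched, and the 2 motifs do not overlap in these windows.
Cacna1f (chrX:7606853-7607102, plus strand): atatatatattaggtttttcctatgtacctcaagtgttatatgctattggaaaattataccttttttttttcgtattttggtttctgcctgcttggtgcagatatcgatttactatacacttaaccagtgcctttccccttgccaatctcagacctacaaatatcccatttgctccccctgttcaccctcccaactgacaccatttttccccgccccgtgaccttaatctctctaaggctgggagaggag
Cacna2d3 (chr14:29721865-29722114, minus strand): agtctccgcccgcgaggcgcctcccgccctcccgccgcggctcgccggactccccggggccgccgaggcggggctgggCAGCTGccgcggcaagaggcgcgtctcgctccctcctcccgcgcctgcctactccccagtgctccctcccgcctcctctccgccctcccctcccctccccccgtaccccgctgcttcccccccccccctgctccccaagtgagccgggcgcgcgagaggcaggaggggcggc
Scn1a (chr2:66440838-66441087, minus strand): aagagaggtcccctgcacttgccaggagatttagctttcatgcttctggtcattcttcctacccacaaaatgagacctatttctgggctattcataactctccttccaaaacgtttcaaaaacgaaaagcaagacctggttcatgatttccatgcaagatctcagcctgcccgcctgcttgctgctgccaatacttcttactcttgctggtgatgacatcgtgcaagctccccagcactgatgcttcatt
Scn7a (chr2:66784911-66785160, minus strand): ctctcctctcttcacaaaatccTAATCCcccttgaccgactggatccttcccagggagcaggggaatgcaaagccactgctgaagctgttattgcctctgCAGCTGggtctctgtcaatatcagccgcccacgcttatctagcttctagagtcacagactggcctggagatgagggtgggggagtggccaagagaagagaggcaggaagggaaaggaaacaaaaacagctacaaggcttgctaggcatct

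The Cacna1f and Scn1a windows held neither motif. The Cacna2d3 window held CAGCTG at position -172 from the transcript start. The Scn7a window held TAATCC at -228 and CAGCTG at -150. Windows were given for 30 of the 40 members, 41 windows in all. TAATCC lay in 3 of these 41, those of Cacna1s, Cacng8 and Scn7a, and in 6.25% of all 32851 windows of the same length. CAGCTG lay in 11 of the 41 and in 13.0% of all windows. A match describes the letters only.

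The makeup of the pore-forming calcium channel genes by type differed between classes. L-type genes (Cacna1c, Cacna1d, Cacna1f and Cacna1s) held 83.1% (Muller) and 94.9% (MullerControl) of the Cacna1 UMIs in rod-like cells and 76.3% (Muller) and 82.2% (MullerControl) in rod bipolar-like cells. In cone-like cells they held 54.9% (Muller) and 58.6% (MullerControl), and T-type genes (Cacna1g, Cacna1h and Cacna1i) held 41.4% (Muller) and 38.3% (MullerControl). T-type genes held 47.9% (Muller) and 53.4% (MullerControl) in other bipolar-like cells. In amacrine-like cells the P/Q-, N- and R-type genes (Cacna1a, Cacna1b and Cacna1e) held 29.6% (Muller) and 31.1% (MullerControl), against 6.23% (Muller) and 3.17% (MullerControl) in rod-like and 3.70% (Muller) and 3.09% (MullerControl) in cone-like cells. These shares add genes of different length and 3′ capture, so they are set only against the same share in another class.

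Cacna1f, the L-type pore of photoreceptor ribbon synapses and a gene of congenital stationary night blindness, lies on chromosome X from 7607083 to 7635196 on the plus strand (GRCm38, GENCODE M21). In rod-like cells it had 79.7 CPM (72.2 to 87.7) in the Muller library, against 89.8 CPM (83.8 to 96.1) in the MullerControl library. In cone-like cells it had 70.2 CPM (55.0 to 88.3) in the Muller library, against 92.6 CPM (82.3 to 104) in the MullerControl library. The rod-like and cone-like intervals overlapped in each library. Other bipolar-like cells held 92.4 CPM (85.5 to 99.6) in the Muller library, against 116 CPM (104 to 129) in the MullerControl library. Rod bipolar-like cells held 54.6 CPM (45.7 to 64.7) in the Muller library, against 54.3 CPM (40.2 to 71.8) in the MullerControl library. The rod bipolar-like level lay below the rod-like and the other bipolar-like one in both libraries, with no overlap of intervals within a library. In Müller-like cells it was 8.87 CPM (Muller) and 6.89 CPM (MullerControl), and in amacrine-like cells 22.6 CPM (Muller) and 28.5 CPM (MullerControl).

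Cacna1d, the L-type pore of neuroendocrine cells and of inner hair cells, lies on chromosome 14 from 30039939 to 30491455 on the minus strand and was highest in cluster 20, with 339 CPM (294 to 389) in the Muller library, against 348 CPM (259 to 457) in the MullerControl library. Amacrine-like cells had 294 CPM (275 to 314) in the Muller library, against 263 CPM (230.4 to 299) in the MullerControl library. The intervals of these overlapped. Other bipolar-like cells followed with 152 CPM (Muller) and 161 CPM (MullerControl) and rod bipolar-like cells with 103 CPM (Muller) and 95.3 CPM (MullerControl). Cluster 10 had 110.2 CPM (Muller) and 126 CPM (MullerControl) and Müller-like cells had 39.2 CPM (Muller) and 43.2 CPM (MullerControl). Rod-like cells had 12.2 CPM (Muller) and 1.61 CPM (MullerControl) and cone-like cells 12.5 CPM (Muller) and 1.60 CPM (MullerControl). Cacna1d was thus low in both photoreceptor-like classes, where Cacna1f had levels near its highest. Cacna1c, the L-type pore of heart and smooth muscle, had 34.9 CPM (Muller) and 27.3 CPM (MullerControl) in amacrine-like cells. Cacna1s, the L-type pore of skeletal muscle, had 19 CPM (Muller) and 19.3 CPM (MullerControl) in other bipolar-like and 21.1 CPM (Muller) and 24.4 CPM (MullerControl) in rod bipolar-like cells.

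Among the T-type pores, Cacna1h, on chromosome 17 from 25374285 to 25433783 on the minus strand, was highest in other bipolar-like cells, with 264 CPM (253 to 276) in the Muller library, against 363 CPM (341 to 386) in the MullerControl library. Cluster 20 followed, with 140.0 CPM (Muller) and 75.0 CPM (MullerControl). Cone-like cells had 62.5 CPM (48.3 to 79.7) in the Muller library, against 62.9 CPM (54.5 to 72.4) in the MullerControl library, and rod-like cells had 7.45 CPM (Muller) and 1.40 CPM (MullerControl). The 2 photoreceptor-like classes thus parted on this gene in both libraries. Rod bipolar-like cells held 10.3 CPM (Muller) and 1.11 CPM (MullerControl), far below the other bipolar-like cells. Cacna1g had 86.6 CPM (Muller) and 83.2 CPM (MullerControl) in amacrine-like and 30.5 CPM (Muller) and 59.0 CPM (MullerControl) in other bipolar-like cells. Cacna1i had 40.4 CPM (Muller) and 18.2 CPM (MullerControl) in amacrine-like cells.

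Among the named classes, the pores of conventional synapses were highest in amacrine-like cells. Cacna1a, the P/Q-type pore, had 38.4 CPM (Muller) and 48.8 CPM (MullerControl) in other bipolar-like cells and, in amacrine-like cells, 128 CPM (115 to 142) in the Muller library, against 122 CPM (99.9 to 147) in the MullerControl library. Cacna1b, the N-type pore, had 59.2 CPM (Muller) and 75.2 CPM (MullerControl) in amacrine-like and 19.5 CPM (Muller) and 23.2 CPM (MullerControl) in other bipolar-like cells. Cacna1e, the R-type pore, had 35.6 CPM (Muller) and 7.98 CPM (MullerControl) in amacrine-like cells. The amacrine-like class was filled unequally, since cluster 6 gave 562 of its 910 Muller cells and 212 of its 233 MullerControl cells, and cluster 16 gave 348 (Muller) and 21 (MullerControl). Microglia or macrophage-like cells also had Cacna1a, at 86.3 CPM (59.8 to 121) in the Muller library, against 46.8 CPM (33.6 to 63.5) in the MullerControl library. Its Muller interval there lay above that of other bipolar-like cells, and its MullerControl interval overlapped that of other bipolar-like cells.

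Cacna2d3, an alpha2delta gene whose loss alters hearing and pain responses in mice, lies on chromosome 14 from 28904943 to 29721864 on the minus strand and was highest in rod bipolar-like cells, with 894 CPM (857 to 932) in the Muller library, against 1097 CPM (1030.1 to 1168) in the MullerControl library. Amacrine-like cells had 134 CPM (121 to 148) in the Muller library, against 206 CPM (177 to 239) in the MullerControl library. Other bipolar-like cells had 110.0 CPM (103 to 118) in the Muller library, against 119 CPM (106 to 132) in the MullerControl library. Rod-like cells had 22.2 CPM (18.3 to 26.6) in the Muller library, against 3.01 CPM (2.0 to 4.35) in the MullerControl library. The rod bipolar-like level lay above every other class in both libraries, with no overlap of intervals. With each cell thinned to 1000 UMIs, 55.9% (Muller) and 54.4% (MullerControl) of rod bipolar-like cells held a Cacna2d3 UMI, against 1.33% (Muller) and 0.231% (MullerControl) of rod-like cells. Without thinning the shares were 79.5% (Muller) and 81.1% (MullerControl) of rod bipolar-like cells, at median depths of 3986 (Muller) and 5314 (MullerControl) UMIs, and 2.52% (Muller) and 0.424% (MullerControl) of rod-like cells, at 931 (Muller) and 1346 (MullerControl). Thinning left out 49 (Muller) and 19 (MullerControl) rod bipolar-like cells and 2407 (Muller) and 2040 (MullerControl) rod-like cells that held fewer UMIs. Droplets can take up free RNA. The source of the low rod-like shares was not tested, and they are not read as expression by rods.

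Cacna2d4, the alpha2delta partner of the photoreceptor L-type channel and a gene of cone dystrophy, lies on chromosome 6 from 119236526 to 119352407 on the plus strand. Rod bipolar-like cells had 306 CPM (284 to 329) in the Muller library, against 299 CPM (265 to 337) in the MullerControl library. Other bipolar-like cells had 283 CPM (271 to 295) in the Muller library, against 313 CPM (293 to 334) in the MullerControl library. These intervals overlapped. Rod-like cells followed with 200.0 CPM (188 to 213) in the Muller library, against 189 CPM (181 to 198) in the MullerControl library. Cone-like cells had 108 CPM (88.7 to 129.6) in the Muller library, against 141 CPM (128 to 155) in the MullerControl library. The order of bipolar-like, rod-like and cone-like cells held in both libraries without overlap between these steps. Müller-like cells had 27.3 CPM (Muller) and 17.5 CPM (MullerControl).

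Cacna2d1, which binds gabapentin and is widespread in brain, had 177 CPM (Muller) and 216 CPM (MullerControl) in other bipolar-like cells, 103 CPM (Muller) and 53.6 CPM (MullerControl) in amacrine-like cells and 31.4 CPM (Muller) and 15.5 CPM (MullerControl) in rod bipolar-like cells. Cacna2d2, whose loss gives the ducky mouse its ataxia, had 93.7 CPM (Muller) and 108 CPM (MullerControl) in other bipolar-like and 171 CPM (Muller) and 57.0 CPM (MullerControl) in amacrine-like cells. Both genes were higher in cluster 16, which gave 348 of 910 Muller and 21 of 233 MullerControl amacrine-like cells. In cluster 6 alone Cacna2d2 had 58.5 CPM (Muller) and 46.3 CPM (MullerControl), and Cacna2d1 had 52.9 CPM (Muller) and 33.4 CPM (MullerControl). Müller-like cells held Cacna2d2 at 39.9 CPM (Muller) and 43.8 CPM (MullerControl). Cluster 10 had 44.1 CPM (Muller) and 61.4 CPM (MullerControl).

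**Figure D2:**
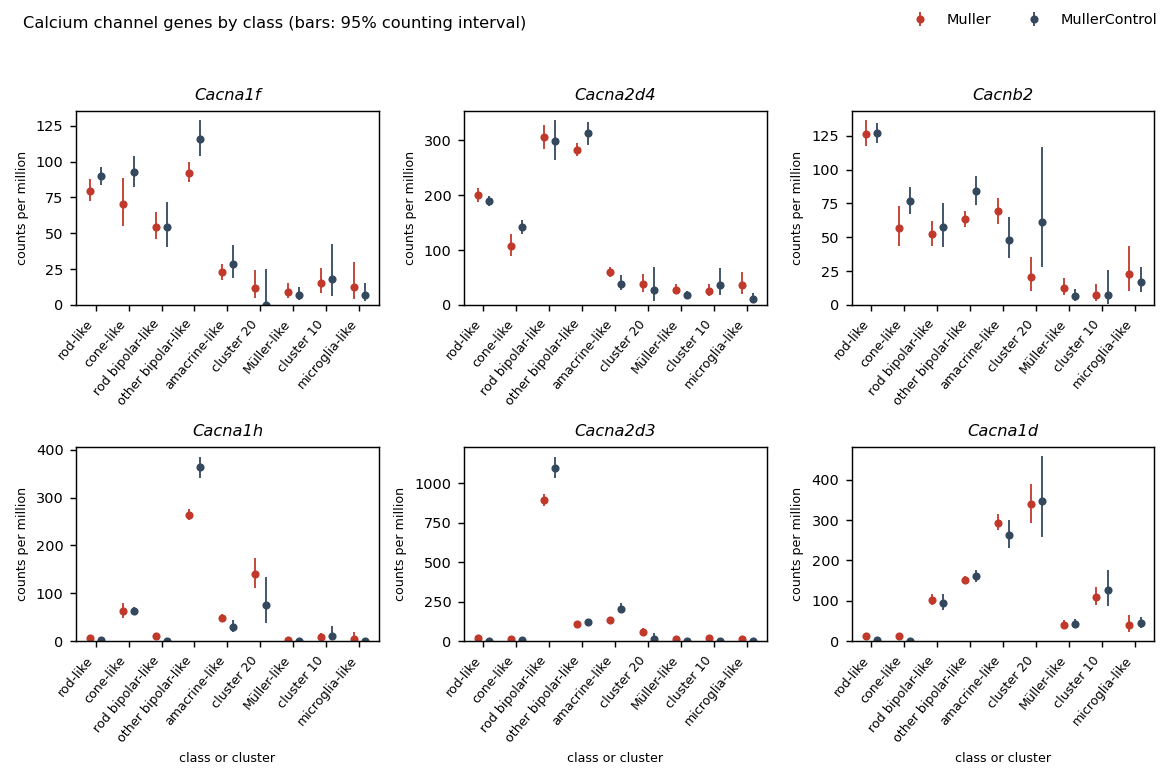
CPM of 6 calcium channel genes by class or unnamed cluster, with the Muller library left of the MullerControl library and bars for exact Poisson 95% intervals. Cacna1f and Cacna2d4 are high in photoreceptor-like and bipolar-like cells, Cacnb2 is highest in rod-like cells, Cacna2d3 in rod bipolar-like cells and Cacna1h in other bipolar-like cells, followed by cluster 20, and Cacna1d is high in amacrine-like cells and cluster 20.

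Among the beta genes, Cacnb2, the partner of Cacna1f in photoreceptors, lies on chromosome 2 from 14603088 to 14987908 on the plus strand and was highest in rod-like cells, with 127 CPM (117 to 137) in the Muller library, against 127 CPM (119.9 to 135) in the MullerControl library. Cone-like cells had 56.8 CPM (43.2 to 73.2) in the Muller library, against 77.0 CPM (67.6 to 87.3) in the MullerControl library. Other bipolar-like cells had 63.5 CPM (Muller) and 84.2 CPM (MullerControl), rod bipolar-like cells 52.1 CPM (Muller) and 57.6 CPM (MullerControl) and amacrine-like cells 69.1 CPM (Muller) and 47.9 CPM (MullerControl). It was the single member highest in rod-like cells in both libraries. Cacnb4, the beta gene of the epileptic lethargic mouse, had in amacrine-like cells 153 CPM (139 to 167) in the Muller library, against 198 CPM (169.9 to 230.0) in the MullerControl library. In cluster 20 it had 184 CPM (151 to 222) in the Muller library, against 136 CPM (83.3 to 211) in the MullerControl library, and in other bipolar-like cells 30.7 CPM (Muller) and 24.6 CPM (MullerControl). The amacrine-like and cluster 20 intervals overlapped. Cacnb1, the beta subunit of skeletal muscle, had its highest levels in cluster 10, with 15.1 CPM (Muller) and 28.9 CPM (MullerControl), and Cacnb3 had 13.7 CPM (Muller) and 9.12 CPM (MullerControl) in amacrine-like cells.

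Of the gamma and TARP genes, Cacng2, Cacng3, Cacng5 and Cacng7 had their highest levels in amacrine-like cells or cluster 20. Cacng2 (stargazin) had 107 CPM (Muller) and 123 CPM (MullerControl) in amacrine-like cells, and Cacng3, another TARP, had 127 CPM (Muller) and 140.2 CPM (MullerControl). Cacng5, also a TARP, had 27.7 CPM (Muller) and 45.6 CPM (MullerControl) in amacrine-like cells. Cacng4, a TARP, lies on chromosome 11 from 107732357 to 107794557 on the minus strand. In Müller-like cells it had 171 CPM (149 to 194) in the Muller library, against 163 CPM (144 to 184) in the MullerControl library. Cluster 10 had 227 CPM (197 to 262) in the Muller library, against 300.0 CPM (239 to 372) in the MullerControl library. Amacrine-like cells had 149.9 CPM (136 to 165) in the Muller library, against 180.0 CPM (153 to 210.4) in the MullerControl library. In other bipolar-like cells it was 5.74 CPM (Muller) and 5.26 CPM (MullerControl), and in cone-like cells 1.92 CPM (Muller) and 2.24 CPM (MullerControl). In cluster 20 it had 140.0 CPM (112 to 174) in the Muller library, against 423 CPM (324 to 542) in the MullerControl library. It was thus high in amacrine-like and Müller-like cells and in clusters 10 and 20, and low in photoreceptor-like and bipolar-like cells. After thinning to 1000 UMIs, 16.5% (Muller) and 12.2% (MullerControl) of Müller-like cells held a UMI of it, against 0.853% (Muller) and 0.162% (MullerControl) of rod-like cells. Unthinned, they were 21.4% (Muller) and 27.2% (MullerControl) of Müller-like and 1.02% (Muller) and 0.220% (MullerControl) of rod-like cells, at Müller-like median depths of 820 (Muller) and 1473 (MullerControl) UMIs. Thinning left out 436 (Muller) and 230 (MullerControl) Müller-like cells. Amacrine marker genes in Müller-like cells summed to 642 CPM (Muller) and 731 CPM (MullerControl), and their part in the Cacng4 level was not tested. In Müller-like cluster 13, 2 of the 10 amacrine markers were raised over all other cells. Cacng7, a TARP, was spread more evenly, with 10.5 CPM (Muller) and 11.2 CPM (MullerControl) in rod-like and 17.6 CPM (Muller) and 22.8 CPM (MullerControl) in other bipolar-like cells. Cacng8, the TARP of hippocampus, had 4.45 CPM (Muller) and 7.98 CPM (MullerControl) in amacrine-like cells.

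Of the 10 sodium channel pore genes, the 5 of the group on chromosome 2 did not share a class pattern. Scn3a runs from 65457118 to 65567627, Scn2a from 65620771 to 65767447, Scn1a from 66270778 to 66440840, Scn9a from 66480080 to 66634962 and Scn7a from 66673425 to 66784914, Scn2a on the plus strand and the others on the minus strand. Scn2a, Scn1a and Scn3a, pores of central neurons, were highest in amacrine-like cells or cluster 20. Scn2a had 62.2 CPM (Muller) and 66.7 CPM (MullerControl) in other bipolar-like cells and, in amacrine-like cells, 125 CPM (112 to 138) in the Muller library, against 157 CPM (132 to 186) in the MullerControl library. Scn3a had 83.1 CPM (Muller) and 51.3 CPM (MullerControl) in amacrine-like and 16.4 CPM (Muller) and 28.4 CPM (MullerControl) in other bipolar-like cells. In cluster 20 Scn1a had 533 CPM (476 to 595) in the Muller library, against 143 CPM (88.7 to 219) in the MullerControl library, and the 2 intervals did not overlap. Amacrine-like cells held it at 121 CPM (109 to 134) in the Muller library, against 112 CPM (90.7 to 136) in the MullerControl library, and other bipolar-like cells at 22.4 CPM (Muller) and 30.9 CPM (MullerControl). Thinned to 1000 UMIs, 45.9% (Muller) and 13.9% (MullerControl) of cluster 20 cells held a UMI of Scn1a, and 0.142% (Muller) and 0.116% (MullerControl) of rod-like cells did. Unthinned shares were 63.5% (Muller) and 39.5% (MullerControl) in cluster 20 and 0.465% (Muller) and 0.110% (MullerControl) in rod-like cells, at cluster 20 median depths of 2701 (Muller) and 4105 (MullerControl) UMIs. With 38 MullerControl cells, cluster 20 was not compared further between libraries.

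Scn7a codes for the sodium-sensing channel homologue Nax, which is known from glia and does not carry action potentials. In Müller-like cells it had 68.7 CPM (55.5 to 84.2) in the Muller library, against 92.0 CPM (77.7 to 108) in the MullerControl library. Cluster 10 had 99.8 CPM (79.8 to 123) in the Muller library, against 152 CPM (109 to 205) in the MullerControl library. Rod-like cells held 1.53 CPM (Muller) and 0.645 CPM (MullerControl), other bipolar-like cells 2.19 CPM (Muller) and 5.62 CPM (MullerControl) and amacrine-like cells 15.1 CPM (Muller) and 18.2 CPM (MullerControl). The other bipolar-like level was uneven, since its cluster 22 held Scn7a at 31.9 CPM (Muller) and 50.8 CPM (MullerControl), on 5 and 15 UMIs. After thinning, 6.54% (Muller) and 6.75% (MullerControl) of Müller-like cells had a UMI of it, against 0.0947% (Muller) and 0.0231% (MullerControl) of rod-like cells, and unthinned shares were 8.72% (Muller) and 14.0% (MullerControl) of Müller-like and 0.177% (Muller) and 0.0942% (MullerControl) of rod-like cells. Scn9a, the pore of pain-sensing neurons, had in Müller-like cells 14.0 CPM (8.45 to 21.9) in the Muller library, against 34.4 CPM (25.9 to 44.8) in the MullerControl library. In cluster 10 it had 33.6 CPM (Muller) and 18.1 CPM (MullerControl). Scn9a and Scn7a, neighbours on chromosome 2, were both detected in Müller-like cells.

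Scn8a, the pore of nodes of Ranvier and axon initial segments, on chromosome 15 from 100869858 to 101045938 on the plus strand, was present in photoreceptor-like, bipolar-like and amacrine-like cells alike. It had 36.1 CPM (Muller) and 34.5 CPM (MullerControl) in rod-like, 41.4 CPM (Muller) and 37.7 CPM (MullerControl) in cone-like, 62.8 CPM (Muller) and 58.8 CPM (MullerControl) in rod bipolar-like, 54.8 CPM (Muller) and 66.7 CPM (MullerControl) in other bipolar-like and 76.0 CPM (Muller) and 93.4 CPM (MullerControl) in amacrine-like cells. Müller-like cells had 14.8 CPM (Muller) and 12.5 CPM (MullerControl). It was not detected in microglia or macrophage-like cells, where a count of 0 allows up to 7.62 CPM (Muller) and 3.43 CPM (MullerControl). Scn4a, the skeletal muscle pore, stayed at 1.72 CPM (Muller) and 2.37 CPM (MullerControl) in rod-like cells. Scn10a and Scn11a, pores of sensory ganglia, had 0 and 2 UMIs.

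**Figure D3:**
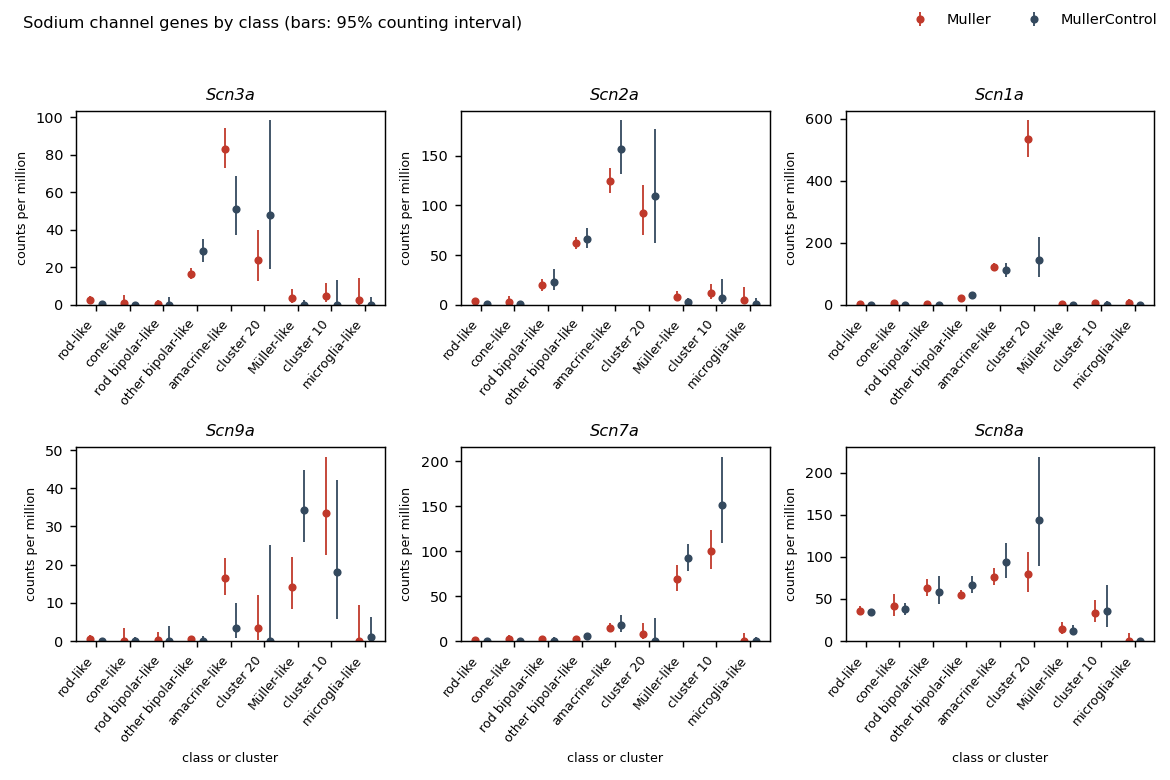
CPM of 6 sodium channel pore genes by class or unnamed cluster, with the Muller library left of the MullerControl library and bars for exact Poisson 95% intervals. Scn1a is highest in cluster 20, Scn2a and Scn3a in amacrine-like cells, Scn7a in cluster 10, and Scn9a in cluster 10 (Muller) or Müller-like cells (MullerControl), and Scn8a is present in every neuronal class.

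Sodium channel beta subunits are single-pass proteins that bind the pore and cell adhesion partners. Scn2b had 81.0 CPM (Muller) and 95.5 CPM (MullerControl) in cluster 20, 58.5 CPM (Muller) and 72.9 CPM (MullerControl) in amacrine-like cells and 10.8 CPM (Muller) and 10.5 CPM (MullerControl) in other bipolar-like cells. Scn3b had 23.6 CPM (Muller) and 4.56 CPM (MullerControl) in amacrine-like cells. Scn2b, like Scn1a, was highest in cluster 20 in each library.

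Within the bipolar-like class, clusters differed in their channels although the channel genes took no part in the clustering. The rest of the class means all other bipolar-like cells, rod bipolar-like cells included, and the 2 folds given are those of the Muller and then the MullerControl library. The most members stood out in cluster 12, whose leading genes included Grik1, Slitrk6 and Fezf2. Its members summed to 2871 CPM (Muller) and 3082 CPM (MullerControl). Cacna2d2 there had 481 CPM (Muller) and 486 CPM (MullerControl), 29.1-fold and 20.7-fold the level in the rest of the class. Cacna2d1 had 579.5 CPM (Muller) and 619 CPM (MullerControl), 6.99-fold and 6.04-fold the level in the rest of the class, and Cacng2 had 85.8 CPM (Muller) and 93.0 CPM (MullerControl), 13.4-fold and 7.62-fold the level in the rest of the class. Of the 3 T-type genes, Cacna1h and Cacna1g also stood out there, Cacna1h with 496 CPM (Muller) and 577 CPM (MullerControl), 3.06-fold and 2.48-fold the level in the rest of the class, and Cacna1g with 123 CPM (Muller) and 148 CPM (MullerControl), 12.3-fold and 4.95-fold the level in the rest of the class. Cacna1i stayed under 2-fold, with 11.4 CPM (Muller) and 16.9 CPM (MullerControl), 1.58-fold and 1.91-fold the level in the rest of the class. T-type genes held 62.6% (Muller) and 64.9% (MullerControl) of its Cacna1 UMIs. Scn1a had 36.8 CPM (Muller) and 42.3 CPM (MullerControl) and Scn2a had 97.2 CPM (Muller) and 108 CPM (MullerControl) in cluster 12, each at least 2-fold the level in the rest of the class. The high Cacna2d1, Cacna2d2, Cacna1g and Cacna1h levels of cluster 12 were found in both libraries.

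In cluster 11, which with clusters 18 and 23 made up the rod bipolar-like cells and whose leading genes included Sebox, Car8 and Prkca, Cacna2d3 had 952 CPM (Muller) and 1177 CPM (MullerControl), 7.36-fold and 8.31-fold the level in the rest of the class. Cacna2d3 was itself a leading gene of that cluster. Cluster 23, a small rod bipolar-like cluster, had 625 CPM (Muller) and 715 CPM (MullerControl), 2.06-fold and 2.07-fold the level in the rest of the class. Cluster 18, led by Ano3 and Lrrtm4, held Scn8a at 149 CPM (Muller) and 192 CPM (MullerControl), 2.76-fold and 3.03-fold the level in the rest of the class. The MullerControl value there rests on 9 UMIs in 28 cells. Median mitochondrial shares were 14.3% (Muller) and 13.2% (MullerControl) in cluster 18 and 14.9% (Muller) and 15.3% (MullerControl) in cluster 23. In cluster 11 they were 5.35% (Muller) and 6.29% (MullerControl). Median depths were 1302.5 (Muller) and 1480 (MullerControl) UMIs in cluster 18, against 4536 (Muller) and 6008.5 (MullerControl) in cluster 11. The part of cell quality in the Scn8a level was not tested. Cluster 15, led by Areg, Tmem200a and Slitrk5, held Scn1a at 91.7 CPM (Muller) and 106 CPM (MullerControl), 8.14-fold and 6.98-fold the level in the rest of the class, and Scn3a at 23.2 CPM (Muller) and 65.0 CPM (MullerControl). Cluster 7, led by Sox6 and Kcng4, held Scn2a at 135 CPM (Muller) and 121 CPM (MullerControl), 3.00-fold and 2.34-fold the level in the rest of the class. In that cluster Cacna1b had 32.6 CPM (Muller) and 42.9 CPM (MullerControl). Cluster 8, whose leading genes included Cabp5, Htr3a and Sox6, held Cacna1a at 68.7 CPM (Muller) and 108 CPM (MullerControl), 2.73-fold and 3.66-fold the level in the rest of the class. In cluster 9, led by Cck, Vsx1 and Cnmd, Cacna1s had 36.2 CPM (Muller) and 49.0 CPM (MullerControl), 2.17-fold and 2.98-fold the level in the rest of the class. In cluster 19, led by Igfn1 and Vsx1, Cacnb4 had 54.3 CPM (Muller) and 61.4 CPM (MullerControl), 2.54-fold and 3.58-fold the level in the rest of the class. Its MullerControl value rests on 8 UMIs in 32 cells. Cluster 22, led by Cpne9 and Tshz2, had Cacna1g at 83.0 CPM (Muller) and 149 CPM (MullerControl), 3.72-fold and 4.16-fold the level in the rest of the class. In cluster 21, with 7 of 8 OFF cone bipolar markers raised, Cacna1g had 80.5 CPM (Muller) and 106 CPM (MullerControl) and Scn3a had 50.8 CPM (Muller) and 59.9 CPM (MullerControl). Cacna1g was thus raised in clusters 12, 21 and 22, Scn1a in clusters 12 and 15 and Scn3a in clusters 15 and 21.

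**Figure D4:**
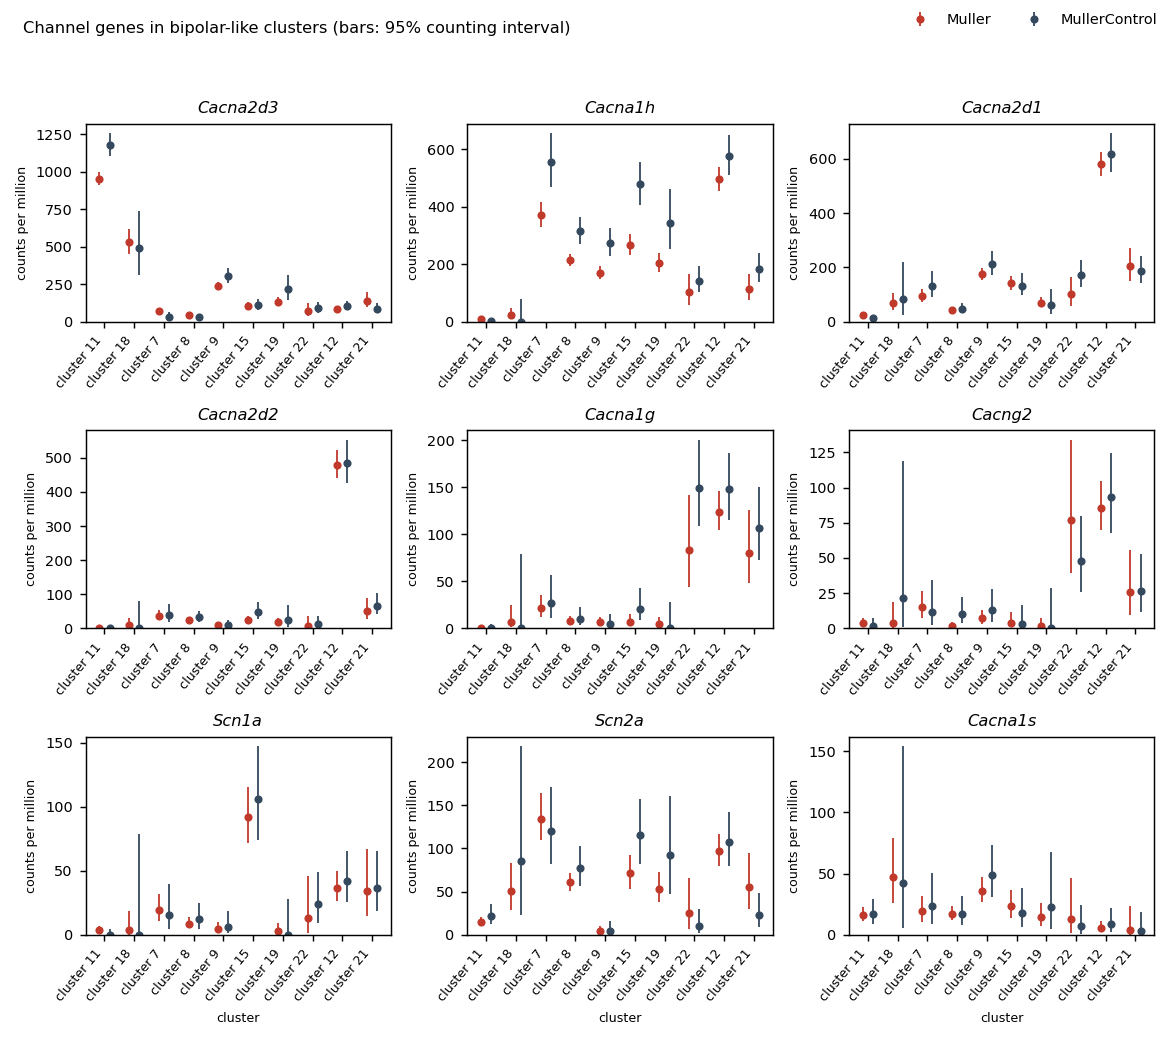
CPM of 9 channel genes in the 10 bipolar-like clusters with the most cells, with the Muller library left of the MullerControl library and bars for exact Poisson 95% intervals. Cacna2d3 peaks in cluster 11, Cacna2d1 and Cacna2d2 in cluster 12 and Scn1a in cluster 15. Cacna1h and Cacng2 are highest in cluster 12, with cluster 7 at a like level for Cacna1h (MullerControl) and cluster 22 for Cacng2 (Muller). Cacna1g peaks in cluster 12 in the Muller library and is at like levels in clusters 22 and 12 in the MullerControl library. Scn2a is highest in cluster 7, with clusters 15 and 12 at like levels in the MullerControl library.

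Of the amacrine-like cells, cluster 6 was led by Ebf1, Ebf3 and Slc6a9, genes of glycinergic cells, and cluster 16 by Gad1, Gad2 and C1ql1, genes of GABAergic cells. Cacna2d3 stood out in cluster 6, with 206 CPM (Muller) and 232 CPM (MullerControl), 9.45-fold and 23.2-fold the level in the rest of the class. In cluster 16 Cacna2d1 and Cacna2d2 stood out, Cacna2d1 with 181 CPM (Muller) and 209.8 CPM (MullerControl), 3.41-fold and 6.27-fold the level in the rest of the class, and Cacna2d2 with 345 CPM (Muller) and 139.9 CPM (MullerControl), 5.89-fold and 3.02-fold the level in the rest of the class. Cacna2d4, the other alpha2delta gene, did not, with 31.4 CPM (Muller) and 40.0 CPM (MullerControl), 0.401-fold and 1.04-fold the level in the rest of the class. Cacna1e there had 62.8 CPM (Muller) and 50.0 CPM (MullerControl). The MullerControl values of cluster 16 rest on 21 cells, that of Cacna1e on 5 UMIs and that of Cacna2d3, against which the 23.2-fold was taken, on 1 UMI.

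Between the libraries, the members were compared within each class as the log2 ratio of Muller over MullerControl, with 1 count added to each sum and 95% counting intervals in parentheses. Members with 20 or more UMIs over the 2 libraries together counted as measured, and those at least 1.5-fold higher or lower were called by this rule of size. In rod-like cells 14 of 20 measured members were higher in the Muller library and 0 lower, against 14.1% higher and 2.16% lower of all 11405 genes measured there. The members' median log2 ratio was 1.70, against 0.06 over all genes. Cacna2d3 had 22.2 CPM (Muller) and 3.01 CPM (MullerControl), a log2 ratio of 2.84 (2.26 to 3.43). Cacna1d had 12.2 CPM (Muller) and 1.61 CPM (MullerControl), a ratio of 2.85 (2.06 to 3.64). The log2 ratio of Cacnb4 was 2.74 (1.86 to 3.63), that of Cacng4 2.57 (1.73 to 3.40) and that of Cacna1h 2.34 (1.47 to 3.22). The other called members were Cacna1a, Cacna1s, Cacna2d1, Cacna2d2, Cacng2, Cacng3, Scn1a, Scn2a and Scn3a, with log2 ratios between 0.73 for Cacna2d2 and 2.72 for Cacng3. All 14 are genes that were higher in bipolar-like, amacrine-like or Müller-like cells than in rod-like cells. This also held for Cacna1f, Cacna2d4, Scn8a and Cacng7, which were not called. The size of the gap varied. In the Muller library, uncalled Cacna1f had 79.7 CPM in rod-like and 92.4 CPM in other bipolar-like cells. Called Cacna2d3 had 22.2 CPM in rod-like and 894 CPM in rod bipolar-like cells, and called Cacna1d 12.2 CPM in rod-like and 294 CPM in amacrine-like cells. The part of this gap in the calls was not tested. Of the members not called, the log2 ratios were -0.17 (-0.34 to 0.00) for Cacna1f, 0.00 (-0.14 to 0.13) for Cacnb2, 0.08 (-0.03 to 0.19) for Cacna2d4, 0.07 (-0.19 to 0.33) for Scn8a and -0.08 (-0.55 to 0.39) for Cacng7. Scn4a, also not called, had 1.72 CPM (Muller) and 2.37 CPM (MullerControl). The bipolar, amacrine and Müller marker lists also summed to higher levels in the Muller library. In rod-like cells the bipolar list summed to 1275 CPM (Muller) and 482 CPM (MullerControl) with 10 of 12 genes called higher, the amacrine list to 222 CPM (Muller) and 29.2 CPM (MullerControl) with 10 of 10, and the Müller list to 1059 CPM (Muller) and 338 CPM (MullerControl) with 12 of 12. No gene of these lists was at 0 in either library. The median depth of rod-like cells was 931 (Muller) and 1346 (MullerControl) UMIs. The part of these markers and of depth in the 14 calls was not tested. With cells of at least 1000 UMIs alone, 9 members were called higher and 1 lower. The share of all genes called at this depth was not computed. At a minimum of 50 UMIs over the 2 libraries together, in place of 20, 6 members were called higher. Some of the 14 rested on few UMIs. Scn3a had 14 (Muller) and 6 (MullerControl), Scn1a 21 (Muller) and 9 (MullerControl) and Scn2a 20 (Muller) and 11 (MullerControl). On MullerControl counts alone, none of these would have counted as measured. Cluster 1, of low depth, gave 1934 of the Muller and 922 of the MullerControl rod-like cells. In cluster 0, which had all 13 rod markers raised, Cacna2d3 had 15.6 CPM (Muller) and 2.13 CPM (MullerControl), a log2 ratio of 2.78 (1.80 to 3.76).

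In cone-like cells 2 of 9 measured members, Cacna2d1 and Cacna2d3, were called higher and 0 lower, against 7.11% higher and 6.91% lower of 9984 genes. The 3 members of the photoreceptor calcium channel had levels a little lower in the Muller library, with log2 ratios of -0.39 (-0.75 to -0.02) for Cacna1f, -0.38 (-0.68 to -0.08) for Cacna2d4 and -0.42 (-0.83 to -0.01) for Cacnb2. None of these passed 1.5-fold. Cacna1h had a ratio of 0.01 (-0.40 to 0.41) and Scn8a one of 0.15 (-0.34 to 0.65). Bipolar markers summed to 875 CPM (Muller) and 389 CPM (MullerControl) and Müller markers to 989 CPM (Muller) and 550.4 CPM (MullerControl) in these cells, with Vsx1 at 0 in the MullerControl library. Amacrine markers summed to 114 CPM (Muller) and 23.3 CPM (MullerControl), with Gad1 and Tfap2a at 0 in the MullerControl library. Their part was not tested.

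In rod bipolar-like cells 3 of 14 measured members, Cacna1b, Cacna1h and Cacna2d1, were called higher and 0 lower, against 7.36% higher and 7.62% lower of 9238 genes. Cacna2d1 had 31.4 CPM (Muller) and 15.5 CPM (MullerControl), a log2 ratio of 0.94 (0.14 to 1.74). Cacna2d3, the gene that set these cells apart, was lower in the Muller library by less than 1.5-fold, at -0.30 (-0.41 to -0.19). Cacna2d4 had 0.03 (-0.17 to 0.23), Cacna1f -0.01 (-0.48 to 0.46) and Scn8a 0.08 (-0.37 to 0.53), so the 3 intervals included 0. Amacrine markers summed to 73.6 CPM (Muller) and 5.54 CPM (MullerControl), with Gad2, Tfap2a, Tfap2b, C1ql1, C1ql2 and Pax6 among the genes at 0 in the MullerControl library. Müller markers summed to 455 CPM (Muller) and 191 CPM (MullerControl), with Sox9 and Kcnj10 at 0 there. Their part was not tested.

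In other bipolar-like cells 2 of 29 measured members were called higher and 3 lower, against 4.24% higher and 8.27% lower of 12123 genes. The median log2 ratio of the members was -0.28, against -0.07 over all genes, and 13 of the 29 intervals lay below 0. Intervals below 0 were not counted over all genes, so this count has no background to be set against. Cacng3 was among the members called higher. Scn7a, Cacna1g and Scn3a were called lower. Scn7a rested on 16 UMIs in each library, and its level was lower in the Muller library in 1 of 8 clusters, cluster 22, and higher in 6. That cluster gave 5 (Muller) and 15 (MullerControl) of these UMIs and 52 (Muller) and 92 (MullerControl) cells. Cacna1g had 30.5 CPM (Muller) and 59.0 CPM (MullerControl), a log2 ratio of -0.95 (-1.24 to -0.67), and Scn3a had 16.4 CPM (Muller) and 28.4 CPM (MullerControl), a ratio of -0.80 (-1.20 to -0.40). The Muller and MullerControl libraries filled the 8 clusters of this class unequally. Within single clusters, cluster 12 gave Cacna1g a ratio of -0.27 (-0.68 to 0.14), cluster 21 one of -0.37 (-1.17 to 0.43) and cluster 22 one of -0.77 (-1.64 to 0.09), and with equal weight for each cluster it was -0.49. Cacna1h had 264 CPM (Muller) and 363 CPM (MullerControl), a log2 ratio of -0.46 (-0.57 to -0.35), under the 1.5-fold rule. Its level was lower in the Muller library in 8 of 8 clusters, among them cluster 7 with 371 CPM (Muller) and 557 CPM (MullerControl), cluster 15 with 267 CPM (Muller) and 478 CPM (MullerControl) and cluster 12 with 496 CPM (Muller) and 577 CPM (MullerControl). Cacna2d2 was lower in the Muller library in 8 of 8 clusters as well. The gap was small in cluster 12, which held most of its UMIs, with 481 CPM (Muller) and 486 CPM (MullerControl). It was larger in cluster 15, with 23.2 CPM (Muller) and 47.2 CPM (MullerControl). How many of all genes were lower in 8 of 8 clusters was not counted. Cacna1f had a ratio of -0.33 (-0.52 to -0.14), Cacnb2 one of -0.41 (-0.63 to -0.19) and Cacna2d1 one of -0.28 (-0.42 to -0.15). Amacrine markers summed to 126 CPM (Muller) and 35.4 CPM (MullerControl), with C1ql2 at 0 in the MullerControl library, and Müller markers to 773 CPM (Muller) and 424 CPM (MullerControl), with Kcnj10 at 0 there. Their part was not tested.

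In Müller-like cells 4 of 13 measured members were called higher and 1 lower, against 6.52% higher and 7.68% lower of 10359 genes. Cacna1a, Cacna2d3, Cacna2d4 and Cacnb2 were called higher, Cacna2d4 at 0.63 (-0.07 to 1.33). Scn9a was lower, with 14.0 CPM (Muller) and 34.4 CPM (MullerControl) and a log2 ratio of -1.25 (-1.98 to -0.51). Of the 2 Müller-like clusters, cluster 13 held 15.9 CPM (Muller) and 43.0 CPM (MullerControl) and cluster 4 held 10.6 CPM (Muller) and 9.74 CPM (MullerControl). Scn7a had a ratio of -0.42 (-0.79 to -0.04), under the 1.5-fold rule. The intervals of Cacng4 at 0.07 (-0.19 to 0.32), Cacna1d at -0.13 (-0.65 to 0.38) and Cacna2d2 at -0.13 (-0.64 to 0.38) included 0. Bipolar markers in these cells summed to 842 CPM (Muller) and 346 CPM (MullerControl), with 8 of 10 measured genes called higher and Vsx1 at 0 in the MullerControl library. Amacrine markers summed to 642 CPM (Muller) and 731 CPM (MullerControl), with Gad2 and Tfap2b at 0 in the MullerControl library. In cluster 13, 2 of the 10 amacrine markers were raised over all other cells. The part of these marker lists was not tested. The median depth was 820 (Muller) and 1473 (MullerControl) UMIs. With cells of at least 1000 UMIs alone, the Cacna2d4 ratio was -0.26.

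In cluster 10, 1 of 9 measured members, Scn9a, was called higher and 2, Cacnb1 and Scn7a, lower, against 9.58% higher and 18.1% lower of 7942 genes. Scn7a had 99.8 CPM (Muller) and 152 CPM (MullerControl), a log2 ratio of -0.62 (-1.15 to -0.10), and Cacng4 had a ratio of -0.41 (-0.78 to -0.04). Cacna1d had -0.22 (-0.78 to 0.33). Bipolar markers summed to 1027 CPM (Muller) and 575 CPM (MullerControl) there, with Grik1 at 0 in the MullerControl library. In cluster 6, the amacrine-like cluster large enough in both libraries, 6 of 31 measured members were called higher and 2 lower, against 7.89% higher and 11.0% lower of 10631 genes. The members called higher were Cacna1e, Cacna1h, Cacna2d1, Cacna2d4, Scn9a and Scn3b, with Cacna1h at 0.97 (0.35 to 1.60) and Cacna2d4 at 0.98 (0.42 to 1.54). Those called lower were Cacng5, at -1.05 (-1.68 to -0.41), and Cacng7, at -0.86 (-1.65 to -0.07). Bipolar markers in cluster 6 summed to 1334 CPM (Muller) and 716 CPM (MullerControl) and Müller markers to 1457 CPM (Muller) and 1145 CPM (MullerControl). Amacrine markers in cluster 10 summed to 1099.6 CPM (Muller) and 1287 CPM (MullerControl), with Gad1, Gad2, Tfap2a, Slc32a1, C1ql1 and C1ql2 at 0 in the MullerControl library. Of the 10 amacrine markers, 2 were raised in cluster 10 over all other cells. The part of these marker lists in either cluster was not tested. Microglia or macrophage-like cells had Cacna1a at a log2 ratio of 0.89 (0.24 to 1.54) and Cacna1d at -0.08 (-0.90 to 0.74).

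**Figure D5:**
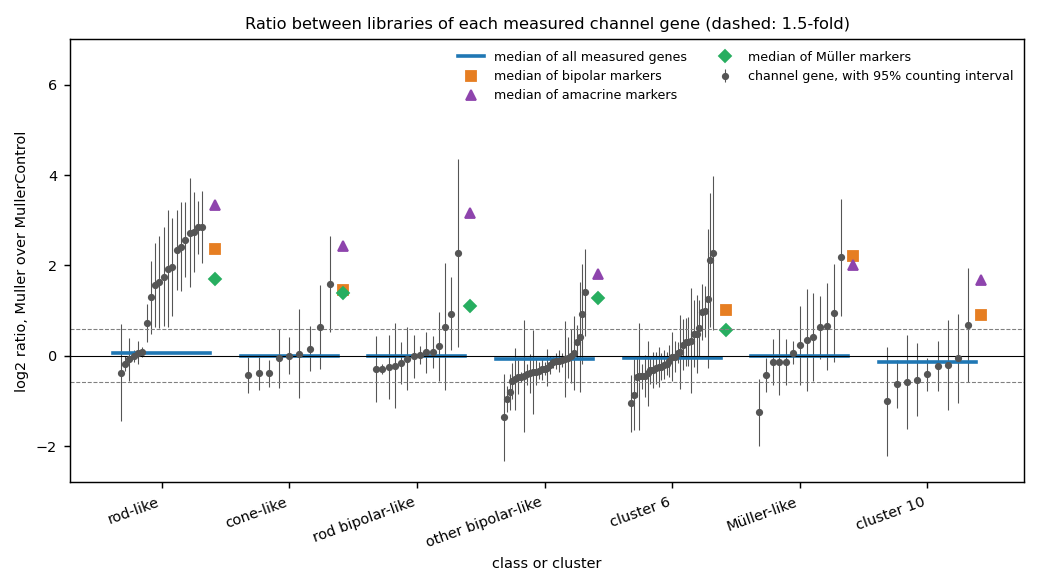
Log2 ratio (Muller over MullerControl) of each measured member by class or cluster, with counting intervals, dashed lines at 1.5-fold and a blue line at the median of all genes. Orange squares, purple triangles and green diamonds mark the medians of the bipolar, amacrine and Müller marker lists. In rod-like cells 14 members and all 3 marker lists of other classes lie above 1.5-fold, and in other bipolar-like cells most members lie below 0.

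Genes that act with the calcium channels at release sites differed between classes too. Cabp4, a calcium-binding protein that tunes the photoreceptor L-type channel, had 567 CPM (Muller) and 586 CPM (MullerControl) in rod-like and 493 CPM (Muller) and 517 CPM (MullerControl) in cone-like cells. Rims2, a release-site scaffold, had 543 CPM (Muller) and 498 CPM (MullerControl) in rod-like, 354 CPM (Muller) and 451 CPM (MullerControl) in cone-like and 551 CPM (Muller) and 588 CPM (MullerControl) in other bipolar-like cells. Cabp5, a related calcium-binding protein, had 1423 CPM (Muller) and 1328 CPM (MullerControl) in rod bipolar-like and 1403 CPM (Muller) and 1376 CPM (MullerControl) in other bipolar-like cells. In amacrine-like cells, where synapses are conventional, Pclo, a scaffold of the active zone, had 575 CPM (Muller) and 514 CPM (MullerControl) and Cabp1 had 449 CPM (Muller) and 572 CPM (MullerControl). In Müller-like cells Ctbp2, whose product includes the ribbon protein Ribeye, had 77.6 CPM (Muller) and 77.6 CPM (MullerControl), and Unc13b, a vesicle priming factor, had 65.8 CPM (Muller) and 58.2 CPM (MullerControl). Between libraries, 5 of 13 measured release-site genes were called higher and 0 lower in rod-like cells, beside the 14.1% of all genes called higher there, and 0 of 14 were called higher and 0 lower in other bipolar-like cells, beside 4.24% higher and 8.27% lower of all genes there. Of the calcium channel regulators, Calm2, a calmodulin gene, had 634 CPM (Muller) and 556 CPM (MullerControl) in rod bipolar-like and 692 CPM (Muller) and 641 CPM (MullerControl) in other bipolar-like cells. In rod-like cells 3 of 5 measured regulators were called higher and 0 lower, beside the same 14.1%. The part of the markers of other classes in these rod-like counts was not tested.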

How the data were processed

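The deposited matrices give raw UMI counts for every gene and barcode. Per the file headers they come from Cell Ranger 4.0.0. Seurat 4.0.5 and the builds mm10 and GRCh38 also stand in the submitters' processing notes, without a role. The smallest barcode total was 500 UMIs. Barcodes under 300 genes or above 20% mitochondrial UMIs were left out, 429 (Muller) and 905 (MullerControl). Scrublet scores (scanpy 1.11.5) ranked doublets, and the top 0.8% per 1000 barcodes were removed, 1130 (9.51%) and 866 (8.32%); the automatic threshold called 2 and 0 cells and did not work. Counts were scaled to 10000 per cell, and 2000 variable genes without the members, 30 principal components, 15 neighbours and Leiden resolution 1 (leidenalg 0.10.2) gave clusters over both libraries. A cluster was named "X-like" from at least 3 markers 2-fold above other cells, with 10 CPM added and 5% detection, unless its leading genes or a second list at 60% spoke for another type. Names rebuilt in this way may differ from those of the study. Bipolar-like clusters with at least 4 of 5 rod bipolar markers formed the rod bipolar-like class. UMIs were summed per class and library, as CPM with exact Poisson 95% intervals; shares of cells were computed unthinned and with each cell thinned to 1000 UMIs. A count of 0 allows up to 3 counts. Ratios between libraries were computed where both had at least 50 cells, with 1 count added. Intervals and limits cover counting error only. Named levels had at least 100 UMIs in the class, named ratios at least 50, and named cluster levels at least 2-fold the rest of the class in both libraries; low values given for contrast, members under 100 UMIs in a class and the members listed as called were added after their values were seen. Partner genes named were the 2 highest of a list in a class. Values of some genes that these rules name, among members, markers and partners, are not reported here. Members, lists and rules were chosen with earlier results of these data known. All 40 members matched GENCODE M21 by gene ID; none overlapped another counted gene on its own strand. Septin4 of the markers and Nalf1, Nalf2 and Fam155b of the partners were not matched. Scripts were checked on simulated counts. Alternatives changed doublet removal, the mitochondrial limit, the clustering, the cell gate, depth, the count minimum and the fold. Python 3.11.15, numpy 2.4.6, scipy 1.17.1 and pandas 2.3.3 were used.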

Additional observations from a re-analysis of the deposited data

Results flagged for a closer look

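In Scn3a and Scn9a the libraries differed in opposite directions in different classes, which is what marked them here, and neither difference between classes was tested. In rod-like cells Scn3a was at a log2 ratio of 1.93 (0.63 to 3.22), with 2.67 CPM (Muller) and 0.645 CPM (MullerControl), and at -0.80 (-1.20 to -0.40) in other bipolar-like cells, with 16.4 CPM (Muller) and 28.4 CPM (MullerControl). The rod-like values rest on 14 (Muller) and 6 (MullerControl) UMIs. Scn9a had a log2 ratio of 2.13 (0.65 to 3.61) in cluster 6, with 22.0 CPM (Muller) and 3.86 CPM (MullerControl), and -1.25 (-1.98 to -0.51) in Müller-like cells, with 14.0 CPM (Muller) and 34.4 CPM (MullerControl). The cluster 6 values rest on 39 (Muller) and 3 (MullerControl) UMIs.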

How the results depend on the processing

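No paired analysis was possible because each group had 1 library. With 1 library per group, leaving out a replicate was not possible either. Of the member counts in each class, 126 recomputed values stayed within 1.5 times the count in the report and 48 did not, and those that did not follow as members called higher or lower in the Muller library. With no doublet removal they were 5 higher in rod bipolar-like cells, 2 higher in Müller-like cells, 2 higher in cluster 10. Under the automatic Scrublet threshold they were 5 higher in rod bipolar-like cells, 2 higher in Müller-like cells, 11 higher in cluster 10. At a mitochondrial share of at most 10% they were 2 lower in cone-like cells, 1 lower in rod bipolar-like cells, 0 higher in cluster 10. With cells gated one by one on markers they were 9 higher in rod-like cells, 1 higher and 3 lower in rod bipolar-like cells, 0 higher in other bipolar-like cells. In cells with at least 1000 UMIs they were 9 higher and 1 lower in rod-like cells, 1 higher in Müller-like cells, 1 lower in cluster 10. With a mean over cells the count was 4 lower in cluster 10. At a minimum of 50 UMIs they were 6 higher in rod-like cells, 0 higher in cone-like cells, 1 higher in rod bipolar-like cells, 1 higher in other bipolar-like cells, 3 higher in cluster 6, 1 higher in Müller-like cells, 0 higher and 1 lower in cluster 10. At a minimum of 1 UMI they were 25 higher in rod-like cells, 19 higher and 1 lower in cone-like cells, 11 higher in rod bipolar-like cells, 4 higher in other bipolar-like cells, 4 lower in cluster 6, 16 higher and 3 lower in Müller-like cells, 5 higher and 9 lower in cluster 10. At a fold of 2 they were 1 higher in cone-like cells, 1 higher in rod bipolar-like cells, 1 higher and 1 lower in other bipolar-like cells, 3 higher and 1 lower in cluster 6, 1 higher in Müller-like cells, 0 higher and 1 lower in cluster 10. With equal weight for each cluster of a class, an alternative added after the data were seen, they were 1 lower in rod-like cells, 1 lower in rod bipolar-like cells, 1 lower in other bipolar-like cells. The cause of these shifts was not tested, apart from the smaller or larger set of members that a count minimum or fold lets through. Of the log2 ratios of single members, 800 recomputed values stayed inside the counting interval, 29 moved outside it and 1 called ratio changed sign: Cacna2d4 in Müller-like cells was at -0.26 in cells with at least 1000 UMIs. Sign changes were counted only for ratios past 1.5-fold, so smaller ratios that changed sign may stand among the 800 or the 29. At Leiden resolution 2, 32 of the cluster folds kept at least 2-fold, and Scn3a in cluster 15 (1.95) and Cacna1s in cluster 18 (1.91) did not. The cell gate gave no value for clusters 6 and 10. Of the levels, 941 moved by less than their counting interval and 155 by more. Low depth limits the members under 100 UMIs and the classes with few cells, such as cluster 20 with 38 MullerControl cells.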

Other observations

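Genes that hold sodium channels in place and those of the sodium leak channel NALCN also differed between classes. Ank3, the ankyrin that anchors sodium channels at axon initial segments, had 517 CPM (Muller) and 770.3 CPM (MullerControl) in amacrine-like cells, 559 CPM (Muller) and 487 CPM (MullerControl) in rod bipolar-like cells and 63.2 CPM (Muller) and 41.8 CPM (MullerControl) in rod-like cells. It was also present in Müller-like cells, at 163 CPM (Muller) and 215 CPM (MullerControl), beside the adhesion molecule gene Nrcam, at 261 CPM (Muller) and 293 CPM (MullerControl). Ank2, a related ankyrin, had 451 CPM (Muller) and 422 CPM (MullerControl) in rod-like, 523 CPM (Muller) and 560.3 CPM (MullerControl) in cone-like and 744 CPM (Muller) and 694 CPM (MullerControl) in other bipolar-like cells. In rod-like cells 5 of 7 measured anchor genes and 3 of 4 measured genes of the NALCN list were at least 1.5-fold higher in the Muller library, and 0 of either list were lower, against 14.1% higher and 2.16% lower of all 11405 genes measured there. Marker genes of other classes moved the same way in these cells, with summed levels of 1275 CPM (Muller) and 482 CPM (MullerControl) for the bipolar, 222 CPM (Muller) and 29.2 CPM (MullerControl) for the amacrine and 1059 CPM (Muller) and 338 CPM (MullerControl) for the Müller list, and their part was not tested. Unc80, a scaffold of the NALCN complex, had 318 CPM (Muller) and 307 CPM (MullerControl) in amacrine-like cells, 270.4 CPM (Muller) and 340.4 CPM (MullerControl) in other bipolar-like cells, 181 CPM (Muller) and 227 CPM (MullerControl) in cone-like cells, 99.5 CPM (Muller) and 98.9 CPM (MullerControl) in rod-like cells and 31.8 CPM (Muller) and 13.1 CPM (MullerControl) in Müller-like cells. Nalcn, the pore of the leak channel, had 54.1 CPM (Muller) and 75.1 CPM (MullerControl) in other bipolar-like and 32.2 CPM (Muller) and 31.0 CPM (MullerControl) in rod bipolar-like cells.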
